A study of Mus musculus with 10 samples.

Results

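10 transcription factor genes of the hair follicle bulge were examined: Lhx2, Nfatc1, Tbx1, Barx2, Nfib, Foxp1, Runx1, Vdr, Trp63 and Gata3. They were chosen by name, as factors linked to bulge stem cells or to skin epithelium, and are 10 of the 37298 rows of the expression table. All 10 passed the filter of a mean of at least 1 FPKM (fragments relative to the length of the transcript and to all mapped fragments of the library), which 14455 rows passed. Expression was measured by RNA sequencing in hair follicle stem cells (HFSCs), and binding of the HMG-box factor SOX9 by ChIP-seq (sequencing of DNA recovered with an antibody, here Millipore AB5535) in HFSCs and in interfollicular epidermal (IFE) cells, all from mouse back skin in telogen, the resting phase.

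The RNA libraries are 2 labelled Sox9 cKO (conditional knockout) and 2 controls. The control titles read Sox9 Het while their genotype field reads wild type, so whether the controls carry 1 deleted allele cannot be settled from the labels. All 4 come from mice of a mixed C57BL6 background given RU486 to activate CrePGR, a Cre recombinase; the promoter that drives it and the number of mice in a library are not given by the submitters. Both replicate 1 libraries are male, aged 75 days and treated from day 48 to day 61, while both replicate 2 libraries are female, aged 80 days and treated from day 53 to day 66. Sex, age and treatment window therefore cannot be told apart. The sort was for integrin α6-high cells that carried CD34 and YFP and lacked ScaI. SOX9 ChIP-seq was done on 2 HFSC libraries and 1 IFE library of untreated CD-1 females aged 52 to 60 days, with the IFE sort differing from the HFSC sort in lacking CD34. Peaks were deposited as 1 list for each ChIP library, holding positions only.

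The bulge is the niche where HFSCs rest between hair cycles. The factors described here act at different levels of that program. Lhx2, Nfatc1, Tbx1 and Barx2 are known in mouse as factors of bulge or follicle cells. Nfib, Foxp1, Runx1 and Vdr are expressed more widely and regulate rest, entry into growth, or crosstalk with other cells. Trp63 (p63) is the factor that basal cells of stratified epithelia depend on, and Gata3 is known for the inner root sheath of the hair and for the epidermal barrier.

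Promoter sequences are shown for Lhx2, which had the greatest difference between genotypes, for Tbx1, where a SOX9 peak lay across a locus edge, and for Foxp1, the one matched gene with SOX motif matches. RefSeq promoters (build GRCm38.p6) matched 6 of the 10 symbols, namely Lhx2, Tbx1, Foxp1, Runx1, Vdr and Gata3, with 11 annotated starts. Nfatc1, Barx2, Nfib and Trp63 had no entry. Each line gives the 250 bases before an annotated start, 5′ to 3′ on the gene's strand. Capitals mark 3 motifs on either strand, of the kind that SOX factors bind. The first is ACAAT and the second is ACAAAG. The longest is AACAATG, which includes the first.
Lhx2 start 1, chr2:38339031-38339280, plus strand: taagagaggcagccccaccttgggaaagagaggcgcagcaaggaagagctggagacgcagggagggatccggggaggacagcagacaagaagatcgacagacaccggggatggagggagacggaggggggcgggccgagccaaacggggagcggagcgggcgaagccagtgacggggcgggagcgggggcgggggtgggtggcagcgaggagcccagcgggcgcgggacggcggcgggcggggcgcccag
Lhx2 start 2, chr2:38351058-38351307, plus strand: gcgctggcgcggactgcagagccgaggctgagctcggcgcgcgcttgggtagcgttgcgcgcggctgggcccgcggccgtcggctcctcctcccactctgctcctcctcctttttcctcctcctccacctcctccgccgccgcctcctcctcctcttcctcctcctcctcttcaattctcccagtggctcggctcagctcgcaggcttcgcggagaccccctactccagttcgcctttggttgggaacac
Tbx1 start 1, chr16:18588900-18589149, minus strand: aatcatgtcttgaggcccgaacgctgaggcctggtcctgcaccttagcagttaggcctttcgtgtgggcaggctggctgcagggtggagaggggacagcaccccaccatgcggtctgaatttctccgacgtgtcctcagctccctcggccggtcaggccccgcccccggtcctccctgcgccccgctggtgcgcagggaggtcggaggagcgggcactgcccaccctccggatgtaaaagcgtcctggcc
Tbx1 start 2, chr16:18590672-18590921, minus strand: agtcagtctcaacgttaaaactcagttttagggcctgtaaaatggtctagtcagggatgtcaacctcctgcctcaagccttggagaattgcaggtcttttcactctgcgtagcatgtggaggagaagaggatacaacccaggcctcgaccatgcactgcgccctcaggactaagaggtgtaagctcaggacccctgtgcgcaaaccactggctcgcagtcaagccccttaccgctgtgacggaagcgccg
Foxp1 start 2, chr6:99266516-99266765, minus strand: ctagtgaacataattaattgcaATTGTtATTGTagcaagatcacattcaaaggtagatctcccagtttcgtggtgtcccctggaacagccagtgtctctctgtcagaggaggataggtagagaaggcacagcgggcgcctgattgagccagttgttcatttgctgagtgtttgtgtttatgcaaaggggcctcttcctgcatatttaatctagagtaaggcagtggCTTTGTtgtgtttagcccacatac
None of the 3 motifs was found in the windows of Lhx2, Tbx1, Runx1, Vdr or Gata3. The Foxp1 start shown held 3 matches, and the other two Foxp1 starts held 1 each. Of all 32851 promoter windows of this length, 27.7% held ACAAT, 16.5% ACAAAG and 3.3% AACAATG, and 38.8% held any of them. The peaks described later are on build mm9, so these windows and the peaks cannot be laid over one another.

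Sox9, the targeted gene, had 71.3 FPKM (replicate 1) and 80.5 FPKM (replicate 2) in the libraries labelled cKO, against 82.7 and 46.5 FPKM in the controls. It was lower in the cKO library of the male pair and higher in that of the female pair, so the labels are not borne out by this gene's whole-gene FPKM, and directions below follow the labels. Sums over all genes were 584125 and 903766 FPKM with the cKO label and 555420 and 786914 in the controls, and the number of reads behind them is unknown. The 10 HFSC markers ran from Tcf7l1 (5.41 to 19.5 FPKM) to Krt15 (8703 to 10894 FPKM). Cd34 had 459.5 and 463 FPKM with the cKO label against 652 and 680 in controls. Krt24 had 623 and 760 FPKM with the cKO label against 408 and 395 in controls. Of the 10, 2 were below control in both pairs, 3 were above in both and 5 went in opposite directions. Summed levels of 6 markers each were 4001 and 8080 FPKM with the cKO label against 4262 and 12650 in controls for differentiating epidermis, 64.6 and 111 against 69.7 and 181 for Langerhans cells, and 7.78 and 76.4 against 7.68 and 14.8 for smooth muscle. Endothelial markers summed to at most 0.272 FPKM, with Cldn5 at 0 throughout. The part of these markers in the results that follow was not tested. In such sorted bulk samples, fewer cells of a type and less RNA per cell cannot be told apart.

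All 10 factors were detected in every library. By mean FPKM over the 4 libraries the order was Trp63 (197), Lhx2 (189), Tbx1 (157), Vdr (155), Nfib (93.8), Barx2 (57.2), Gata3 (47.4), Nfatc1 (39.3), Foxp1 (25.5) and Runx1 (9.98). FPKM is scaled by transcript length, so these levels can be set beside one another, but only roughly. Nfib ranked 3 (cKO label) and 5 (control) in replicate 1 but 6 in both replicate 2 libraries. Tbx1 ranked 5 and 4 in replicate 1 but 2 in both replicate 2 libraries. Among the 14455 tested genes, Trp63 stood at percentile 96.1, Lhx2 at 95.9, Nfatc1 at 80.3 and Runx1 at 43.9. Each gene's range over the 4 libraries overlapped that of the next in the order, so no neighbours were separated beyond their spread. Foxp1 and Runx1 nonetheless held the last 2 places in each of the 4 libraries. Lhx2 ranked 4 in both libraries labelled cKO and 1 in both controls.

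**Figure D1:**
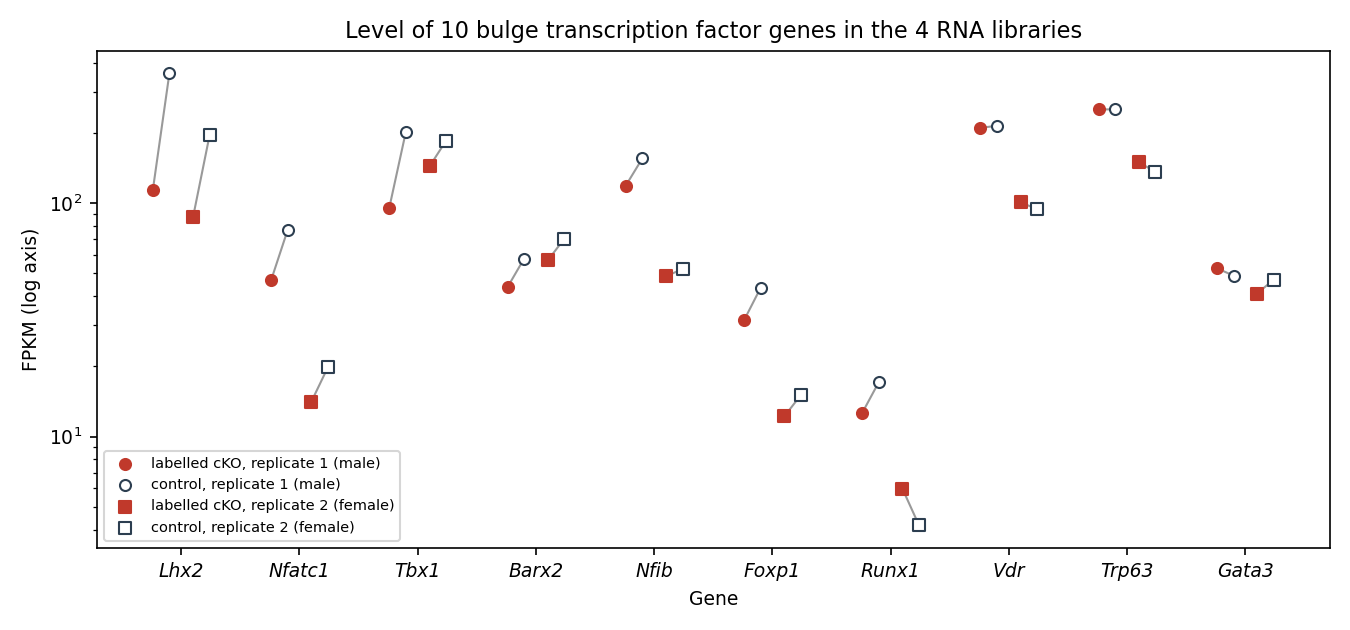
FPKM (log axis) of each of the 10 genes in the 4 RNA libraries; filled red symbols are libraries labelled cKO, open symbols controls, circles replicate 1 (male) and squares replicate 2 (female), with same-numbered libraries joined. Lhx2 has both cKO symbols (114 and 87.1) below both control symbols (359 and 195), while for Nfatc1, Nfib and Vdr the squares lie below the circles in both genotypes.

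Libraries labelled cKO were set against controls to ask which of these factors change when Sox9 is deleted. Lhx2, a LIM-homeodomain factor that keeps HFSCs in their state, had 114 and 87.1 FPKM in the libraries labelled cKO (replicates 1 and 2), against 359 and 195 FPKM in the controls. The groups did not overlap, and the mean was 101 ± 18.9 FPKM with the cKO label and 277 ± 116 FPKM in the controls (SD, n = 2 each). On log2(FPKM + 1), the difference was -1.65 in the male pair and -1.16 in the female pair, with a mean of -1.40. Genotype alone gave a moderated SE of 0.49 and no call (limma, adjusted p = 1.00), whereas adding the replicate number as a block (the blocked fit) gave an SE of 0.15 and a call (limma, adjusted p = 0.0273).

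The other factors of the bulge group were also lower in both pairs. Tbx1, a T-box factor needed in mouse for HFSC self-renewal, had 95.6 and 144 FPKM in the libraries labelled cKO, against 202 and 185 FPKM in the controls. The groups did not overlap, but the male pair differed by -1.07 and the female pair by -0.36 (mean -0.72 ± 0.18, moderated SE; blocked limma fit, adjusted p = 0.275). Nfatc1, a calcineurin-regulated factor that holds bulge cells in rest, had 46.7 and 14.1 FPKM in the libraries labelled cKO, against 76.7 and 19.8 FPKM in the controls. Its groups overlapped, and replicate 2 was far below replicate 1 in both genotypes. Within pairs Nfatc1 differed by -0.70 and -0.46 (mean -0.58 ± 0.14; blocked limma fit, adjusted p = 0.247). Barx2, a homeobox factor, had 43.7 and 56.8 FPKM in the libraries labelled cKO, against 57.8 and 70.4 FPKM in the controls. These did not overlap, with pair differences of -0.40 and -0.30 (blocked limma fit, adjusted p = 0.388).

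None of the more widely expressed factors passed the test. Foxp1, a forkhead factor tied to rest of HFSCs in mouse, had 31.5 and 12.2 FPKM in the libraries labelled cKO, against 43.3 and 15.1 FPKM in the controls, which is lower within each pair (-0.45 and -0.28). Nfib, a nuclear factor I protein through which mouse HFSCs restrain melanocyte stem cells, had 119 and 48.6 FPKM in the libraries labelled cKO, against 155 and 52.2 FPKM in the controls (-0.38 and -0.10). Both genes had overlapping groups, and neither passed the test with the block (limma, adjusted p = 0.402 for Foxp1 and 0.539 for Nfib). Runx1, a Runt factor that promotes entry of HFSCs into growth in mouse, had 12.6 and 5.98 FPKM in the libraries labelled cKO, against 17.1 and 4.18 FPKM in the controls. Its pairs pointed in opposite directions. Vdr, the vitamin D receptor, without which mice lose their hair, had 210 and 101 FPKM in the libraries labelled cKO, against 214 and 94.2 FPKM in the controls. The mean difference of Vdr was 0.03 ± 0.12 (moderated SE, blocked limma fit, adjusted p = 0.947), with -0.03 in the male pair and 0.10 in the female pair.

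For the epithelial factors the mean differences were close to 0. Trp63 had 252 and 149 FPKM in the libraries labelled cKO, against 252 and 136 FPKM in the controls. Gata3 had 52.6 and 41.0 FPKM in the libraries labelled cKO, against 48.9 and 47.0 FPKM in the controls, the narrowest spread of the 10 genes with a highest level 1.28 times the lowest. The log2 differences were 0.07 ± 0.12 for Trp63 and -0.05 ± 0.14 for Gata3 (moderated SE, blocked limma fit, adjusted p = 0.884 and 0.937). When each library is rescaled to the same total, the median of all genes shifts by -0.13, and Runx1 (-0.11), Vdr (-0.10) and Trp63 (-0.07) turn negative but stay above that shift.

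**Figure D2:**
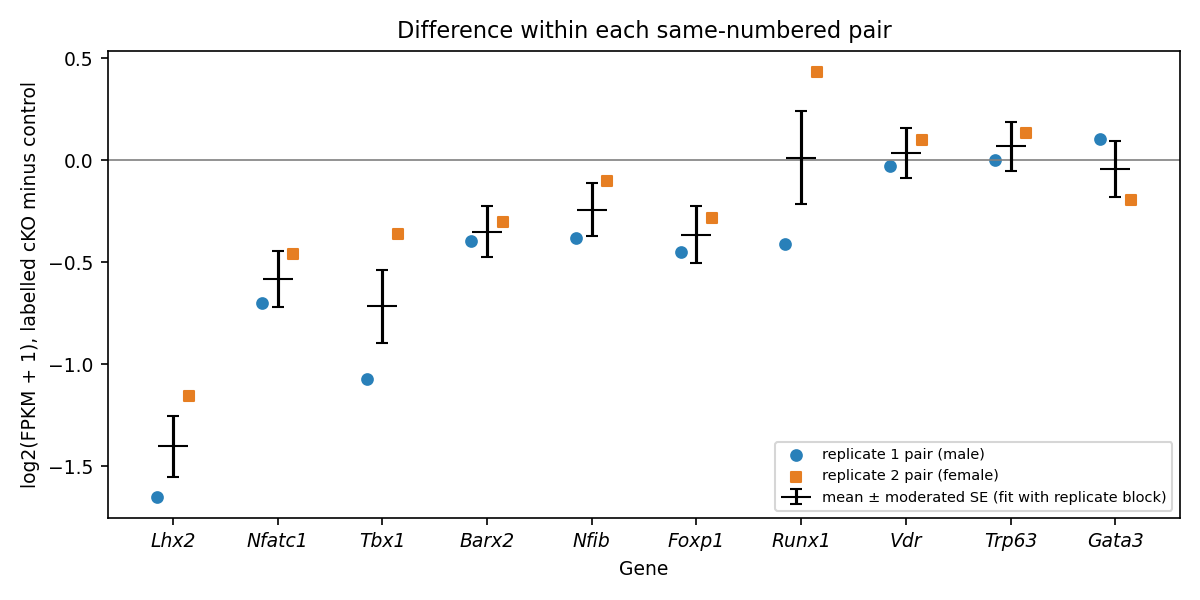
Difference in log2(FPKM + 1) between the library labelled cKO and its same-numbered control, for replicate 1 (blue circles) and replicate 2 (orange squares), with the mean and moderated SE of the fit with the replicate block (black). Lhx2 stands lowest at -1.65 and -1.16, 6 genes lie below 0 in both pairs, and Runx1, Vdr, Trp63 and Gata3 straddle or touch 0.

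Counted together, 6 of the 10 factors were below control in both pairs and 0 were above in both, against 29.6% and 28.4% of all tested genes. Values of the libraries labelled cKO lay wholly below those of the controls for 3 of 10 (Lhx2, Tbx1 and Barx2) and wholly above for 0, against 8.42% and 5.47% of tested genes. The median log2 difference of the 10 was -0.30, beside -0.01 over all tested genes. With the block, limma called 1 of the 10 lower and 0 higher, against 0.18% of tested genes called lower and 0.104% called higher (0.284% in all). Before adjustment 5 of the 10 had p under 0.05 in the blocked fit, beside 1648 genes in all (11.4%). With genotype alone it called 0 of the 10 and 0% of tested genes; 1 of the 10 (Lhx2) and 93 genes in all had p under 0.05 before adjustment. The members were chosen with earlier results of these data known, so these shares are descriptions.

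The blocked call of Lhx2 depends on how the table is handled. It ended without the filter on low values (limma, adjusted p = 0.742), on rescaling each library to 1 total (0.0732), with quantile normalization (0.184) and without the mean trend (0.225). The difference itself stayed between -1.58 and -1.37 over all 8 blocked fits, and between -1.84 (control 2 dropped) and -0.96 (control 1 dropped) when single libraries were dropped from the unblocked fit. Gm13584, a predicted gene listed with the same locus coordinates as Lhx2, had 2.25 and 1.21 FPKM in the libraries labelled cKO, against 9.704 and 3.47 FPKM in the controls. No source states that strand was used in counting, so whether reads of one were counted for the other is not known. The log2 difference of Gm13584 was -1.37, beside -1.40 for Lhx2.

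The genes whose pattern over the 4 libraries lay closest to that of Lhx2, by Euclidean distance between centred log2(FPKM + 1) values, were Mmp11 (distance 0.192), Msrb3 (0.216) and 6330403K07Rik (0.242). For Nfatc1 they were Sorl1 (0.11), Celsr2 (0.144) and Msmp (0.195), and for Tbx1 Gm53 (0.079), Gm11632 (0.106) and Hoxb9 (0.132).

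Related genes were counted from lists set by name. Of 35 paralogs of the factors, 11 passed the filter, none was called in either fit, and their median log2 difference was -0.12, beside -0.01 over all tested genes. The lowest p in the blocked fit among them belonged to Nfatc4 (mean -0.94 at a mean of 2.03 FPKM), Nfia (-0.62), Nfic (-0.35) and Nfix (-0.25), the last at a mean of 97.9 FPKM. Of 23 partners and regulators, 19 were tested and none was called, with Lmo4, a LIM-only protein that binds the LIM cofactor, at -0.46, Hr (hairless, a corepressor of Vdr) at -0.46, Ncoa3 at 0.19 and Ppp3cc at -0.21. Ldb1, that LIM cofactor, had 120 and 158 FPKM in the libraries labelled cKO, against 121 and 145 FPKM in the controls. Among 47 other transcription factors of bulge and skin epithelium, 35 were tested and none was called; Dlx3 gave -0.80, Msx2 -0.72, Tcf7l2 -0.60 and Sox4 0.86. Of 27 targets of p63, 25 were tested and none was called (median 0.08, with Fgfr2 at 0.70, Jag1 at 0.49, Dsg3 at -0.26 and Dst at -0.21). Of 18 targets of the vitamin D receptor, 11 were tested and none was called (median 0.05, with Pthlh at 0.72, Cyp2r1 at 0.55, Lgr5 at -0.26 and Cst6 at -0.34). Adjusted p of the genes named by smallest p in the blocked limma fit lay between 0.0942 (Fgfr2) and 0.775 (Ppp3cc).

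The difference between replicates was larger than that between genotypes for most of the factors. Among libraries labelled cKO, Nfatc1 had 14.1 FPKM in replicate 2 against 46.7 in replicate 1, and among controls 19.8 FPKM in replicate 2 against 76.7 in replicate 1. Nfib, Foxp1, Runx1, Vdr and Trp63 were likewise lower in replicate 2 in both genotypes, without overlap. The log2 difference was -1.78 ± 0.14 for Nfatc1, -1.41 ± 0.13 for Nfib, -1.39 ± 0.23 for Runx1, -1.38 ± 0.14 for Foxp1, -1.12 ± 0.12 for Vdr and -0.82 ± 0.12 for Trp63 (moderated SE). With genotype as the other term, limma called these and Lhx2 (-0.63) lower in replicate 2 (adjusted p between 0.000333 for Nfatc1 and 0.0124 for Lhx2), which is 7 of the 10, against 24.1% of tested genes. No factor was called higher in replicate 2, against 25.8% of tested genes (50% were called in either direction). These backgrounds hold on the FPKM scale: with every library rescaled to the same total, limma called 8 of the 10 lower (Gata3 in addition), against 46.4% of 15215 tested genes called lower and 10.6% called higher. The Lhx2 call was lost without the genotype term (limma, adjusted p = 0.421) and without the filter on low values (0.103), and the Runx1 call without that filter (0.0693). Tbx1 (0.23), Barx2 (0.33) and Gata3 (-0.20) did not pass (limma, adjusted p = 0.322, 0.0647 and 0.252). Replicate 2 values lay wholly below those of replicate 1 for 7 of 10 (Gata3 in place of Lhx2) and wholly above for 0, against 37.5% and 37.9% of tested genes.

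Locus length moved with this difference. The median log2 difference between replicate 2 and replicate 1 was 0.45 for the 4039 tested genes with a locus under 10 kb, 0.04 for 3848 of 10 to 30 kb, -0.30 for 4125 of 30 to 100 kb and -0.37 for 2443 over 100 kb. Nfatc1, Nfib, Foxp1, Runx1 and Trp63 have listed loci over 100 kb, Vdr one of 56.2 kb and Tbx1 one of 6.3 kb. The listed locus of Foxp1 is also that of Eif4e3. With a trend on locus span removed from each library, an alternative chosen after seeing the data, Nfatc1 still differed by -1.38, Nfib by -1.13, Foxp1 by -1.17, Runx1 by -1.03, Vdr by -0.81, Lhx2 by -0.49 and Trp63 by -0.45 (limma, adjusted p between 0.00122 for Nfatc1 and 0.0406 for Lhx2), and Barx2 was called higher at 0.68 (adjusted p = 0.00679). Rescaling to equal totals shifted the median of all genes by -0.51 and turned Tbx1 to -0.34 and Barx2 to -0.23, both above that shift. Sex, age and treatment window cannot be told apart here.

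**Figure D3:**
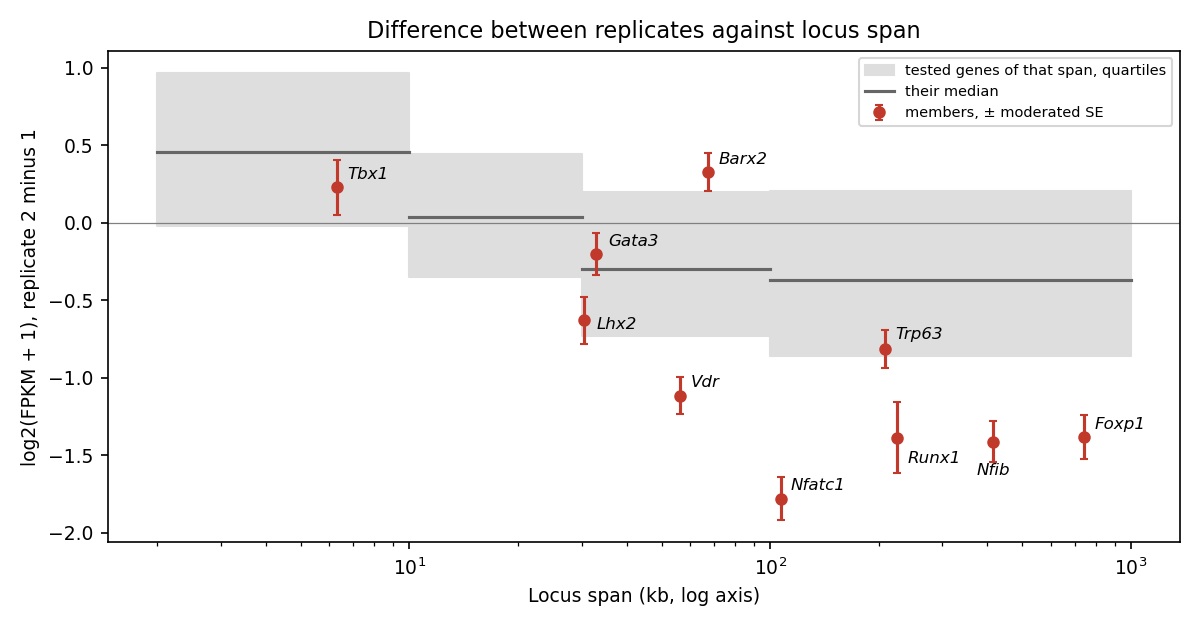
Difference in log2(FPKM + 1) between replicate 2 and replicate 1 (mean over both genotypes, ± moderated SE, red) of each factor against its locus span in kb (log axis), with the median (line) and quartiles (grey) of all tested genes in 4 span classes. The class medians fall with span, from 0.45 to -0.37, and Nfatc1, Nfib, Foxp1, Runx1 and Vdr lie below the quartile band of their class.

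SOX9 binding was then read from the peak lists, by counting peaks whose nearest base lay within 50 kb of each locus of the table (mm9). Of the 10 loci, 9 had a peak in HFSC list 1, against 54.1% of tested loci, and 8 had one in HFSC list 2, against 38.6%. A peak present in both HFSC lists, overlapping by at least 1 bp, lay near 8 of 10, against 26.5%, and the IFE list had a peak near 9 of 10, against 53.8%. Among tested loci over 100 kb, 65.1% had a peak in HFSC list 1, 42.4% in HFSC list 2, 32% in both and 57.5% in the IFE list. For tested loci of 30 to 100 kb these shares were 56.9%, 40.2%, 27.1% and 59.6%. For those under 10 kb they were 44.1%, 32.1%, 21.6% and 42.9%. The lists hold no height or score, and peaks near a gene are not shown to act on it.

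The density of peaks differed between the lists. HFSC list 1 had 64 peaks in the 2.89 Mb of the 10 windows, or 22.1 per Mb, against 7.03 per Mb over the windows of all tested loci. HFSC list 2 had 15 peaks (5.19 per Mb, against 3.38) and the IFE list 15 peaks (5.19 per Mb, against 6.07). Windows of neighbouring genes overlap, so that a peak can count for several loci in the density over all tested loci. At least 5 peaks of HFSC list 1 lay near 8 of the 10 factors, against 4.37% of tested loci. Longer loci have longer windows, and no share of this count was taken for loci of like length. Loci over 100 kb belong to 5 of the 10 factors and to 2443 of the 14455 tested genes. The lists differ in length (8181, 2989 and 5209 peaks), and no test between cell types is possible with 1 IFE list.

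**Figure D4:**
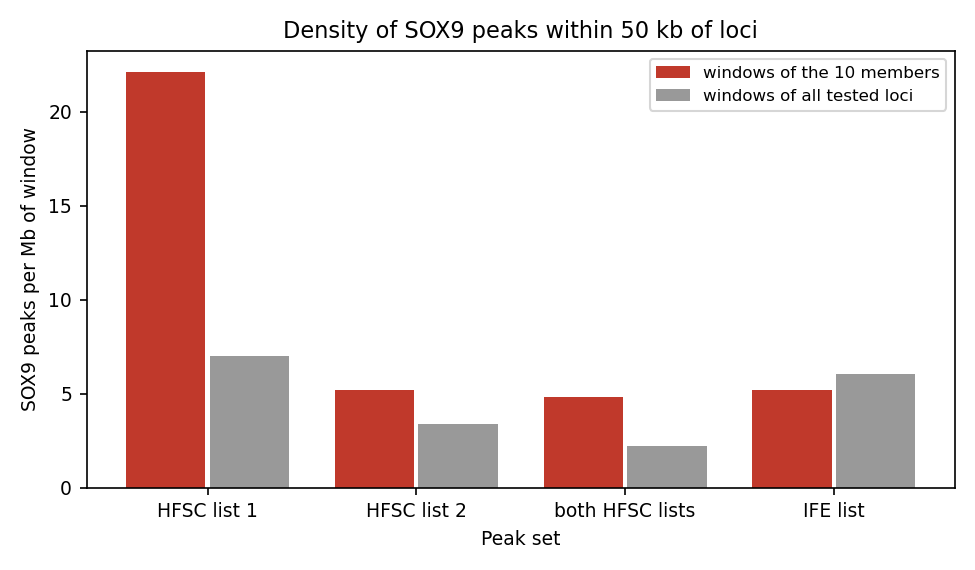
SOX9 peaks per Mb of window (locus plus 50 kb on each side) for the 10 factors (red) and for all 14455 tested loci (grey), in HFSC list 1, HFSC list 2, peaks of both HFSC lists, and the IFE list. The red bar is above the grey bar for HFSC list 1 (22.1 against 7.03), HFSC list 2 (5.19 against 3.38) and both lists (4.84 against 2.2), and below it for the IFE list (5.19 against 6.07).

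The share of peaks found in both HFSC lists depends on list length, since list 1 holds 8181 peaks and list 2 holds 2989. Of the 15 list 2 peaks, 14 overlapped a list 1 peak (93.3%, beside 68.6% of all list 2 peaks), while of the 64 list 1 peaks 14 overlapped a list 2 peak (21.9%, beside 25% of all list 1 peaks). Of the 14 shared peaks, 5 also overlapped an IFE peak (35.7%, beside 60.9% of all 2065 shared peaks) and 9 did not. The 9 without an IFE peak lay near 6 genes, namely Lhx2, Tbx1, Nfib, Foxp1, Runx1 and Vdr. The 5 with one lay near Lhx2, Nfatc1, Foxp1 and Trp63. Among the 15 IFE peaks, 10 overlapped an HFSC peak of either list (66.7%, beside 54.8% of all IFE peaks), and 5 did not. Positions follow the authors' coordinates, which give no strand, and for 6 of the factors other rows of the table list overlapping loci, so a locus edge need not be that gene's own end.

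At Lhx2 (ENSMUSG00000000247, mm9 chromosome 2, 38194800 to 38225253) list 1 had 6 peaks, 4 of them in the locus. A peak at 38224006 to 38224854, with its centre 0.8 kb inside the high-coordinate edge, was present in all 3 lists. Peaks at 38232539 to 38233161 and 38234514 to 38235051, which begin 7.3 and 9.3 kb beyond that edge, were in both HFSC lists and not in the IFE list. RefSeq places Lhx2 on the plus strand, so these lie on the side of the gene's end. The list 1 peaks at 38203265 to 38203709, 38205811 to 38206939 and 38215177 to 38215957 were in that list alone.

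At Nfatc1 (ENSMUSG00000033016, chromosome 18, 80802943 to 80909810) list 1 had 9 peaks, and both shared ones were also in the IFE list. One lay inside the locus at 80852257 to 80852956 and one at 80911575 to 80912574, beginning 1.8 kb beyond the high-coordinate edge. A further list 1 peak at 80909553 to 80910178 spanned that edge and was in that list alone. Each of the 2 IFE peaks of Nfatc1 was matched in both HFSC lists.

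Tbx1 (ENSMUSG00000009097, chromosome 16, 18581805 to 18588113) had the densest window, with 7 list 1 peaks or 6.58 per 100 kb. Only 2 of them lay in the 6.3 kb locus. One of these 2, at 18587966 to 18588531, spanned the high-coordinate edge. That is the start side, since RefSeq places Tbx1 on the minus strand. The list 1 peaks between 18536492 and 18548631 lay in the locus listed for Gnb1l and Gm16314. The one peak of both HFSC lists, at 18547720 to 18548631, lay 33.2 kb below the locus, inside the locus that the table gives for Gnb1l and Gm16314, and was not in the IFE list. With a window of 10 kb, Tbx1 therefore loses its shared peak. Gm16314, a predicted gene examined with Gnb1l after their values were seen, had 9.47 and 7.79 FPKM in the libraries labelled cKO, against 39.95 and 21.4 FPKM in the controls (log2 difference -1.66). Its call rests on the block, with 1 residual degree of freedom: limma gave an adjusted p of 0.0297 with it and 1.00 with genotype alone. Gnb1l, a gene for a WD-repeat protein, had 16.9 and 28.3 FPKM in the libraries labelled cKO, against 36.5 and 43.1 FPKM in the controls (-0.83, adjusted p = 0.137 in the blocked limma fit). Gm16314 and Gnb1l share a listed locus, and whether reads of one were counted for the other is not known. Between replicates they went opposite ways, with replicate 2 minus replicate 1 at -0.56 for Gm16314 and 0.47 for Gnb1l. The IFE peak in Tbx1, at 18582385 to 18583002, overlapped no HFSC peak.

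Barx2 (ENSMUSG00000032033, chromosome 9, 31653681 to 31721047) had 4 list 1 peaks, all in the locus, and none of list 2, whose nearest peak lay 155.6 kb away. Its 2 IFE peaks overlapped none of the HFSC peaks, and one of them, at 31720589 to 31721298, spanned the high-coordinate edge. Gata3 (ENSMUSG00000015619, chromosome 2, 9778704 to 9811661) was the one factor with no peak in any list. The nearest peak to it lay 126.6 kb away in HFSC list 1, 190.2 kb away in the IFE list and 1553 kb away in HFSC list 2. Barx2 and Gata3 thus lacked a shared HFSC peak also with a window of 100 kb.

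**Figure D5:**
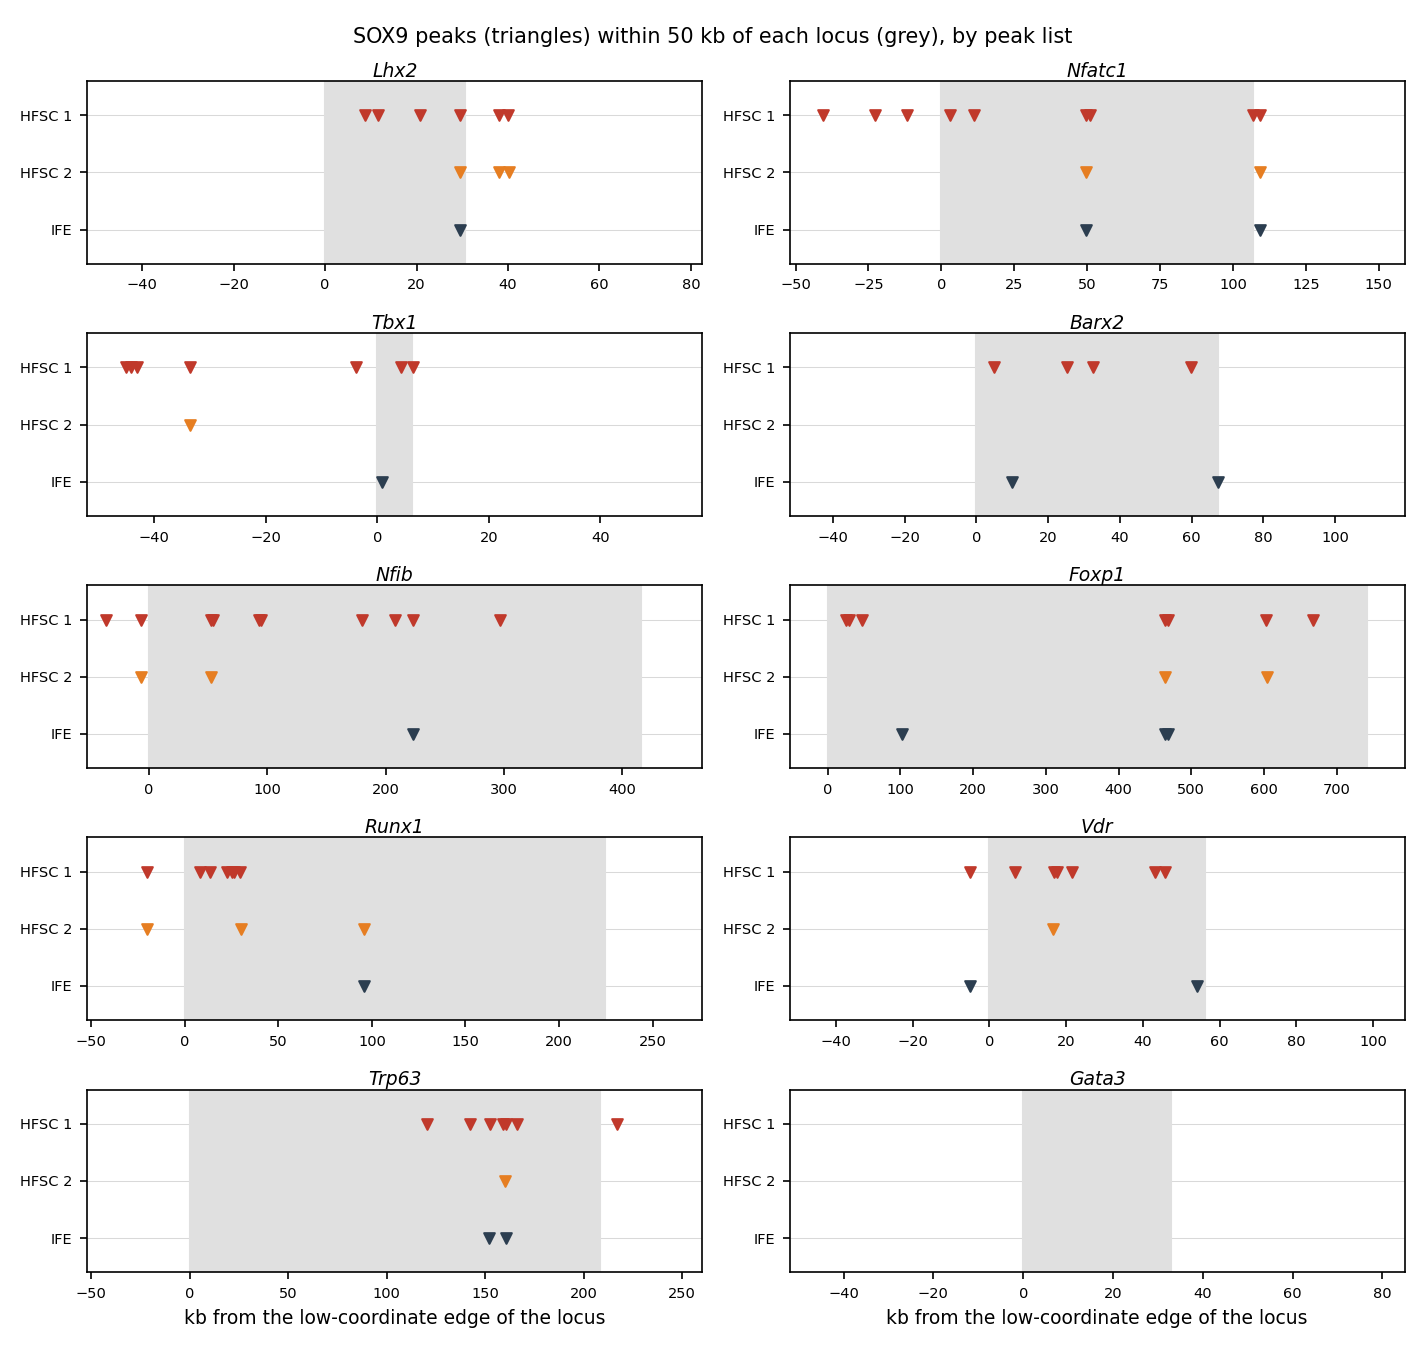
Centres of SOX9 peaks (triangles) by distance in kb from the low-coordinate edge of each locus, with HFSC list 1 on top, HFSC list 2 in the middle and the IFE list at the bottom; grey marks the locus and the x axis differs between panels. List 1 peaks are spread over 9 of the 10 windows, the 2 shared peaks beyond Lhx2 have no IFE peak under them, and Gata3 is empty.

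For the long loci most of the window was the locus itself, at 741.5 of 841.5 kb for Foxp1 and 415.6 of 515.6 kb for Nfib. Foxp1 (ENSMUSG00000030067, chromosome 6, 98875331 to 99616791) had 7 list 1 peaks, all in the 741.5 kb locus, or 0.83 per 100 kb. Eif4e3 is listed with the same coordinates, so this span need not be that of Foxp1 alone. Its peak at 99338724 to 99339510 was in all 3 lists and the one at 99477917 to 99479399 in both HFSC lists and not in the IFE list. Nfib (ENSMUSG00000008575, chromosome 4, 81936076 to 82351654) had 10 list 1 peaks, with shared ones at 81929091 to 81929819, 6.3 kb below the locus, and at 81987741 to 81988616. Neither overlapped an IFE peak; the one IFE peak there, at 82158740 to 82159441, overlapped a list 1 peak.

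Runx1 (ENSMUSG00000022952, chromosome 16, 92601711 to 92826311) had 7 list 1 peaks, of which 6 fell in the low-coordinate part of the locus between 92609588 and 92632109. Shared peaks lay there at 92631011 to 92632109 and, 19.9 kb below the locus, at 92581201 to 92581835, and neither was in the IFE list. The IFE peak at 92697439 to 92698007 overlapped a list 2 peak that list 1 lacks. Vdr (ENSMUSG00000022479, chromosome 15, 97684855 to 97741061) had 7 list 1 peaks, 1 of them shared with list 2 at 97701343 to 97701891. Of its 2 IFE peaks, one at 97738690 to 97739280 overlapped no HFSC peak and lay toward the start side, since RefSeq places Vdr on the minus strand. Trp63 (ENSMUSG00000022510, chromosome 16, 25683848 to 25892188) had 7 list 1 peaks, 6 of them in the locus between 25804258 and 25850456. The peak at 25843603 to 25844993, 1391 bp wide, was in all 3 lists, and the second IFE peak at 25835683 to 25836292 overlapped one of list 1.

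SOX9 peaks near the related genes were counted in the same way. A peak of both HFSC lists lay within 50 kb of 5 of the 11 tested paralogs (Nfix, Foxp4, Trp73, Nfatc3 and Nfic), 10 of the 19 tested partners, 11 of the 35 other factors, 17 of the 25 p63 targets and 6 of the 11 vitamin D receptor targets, beside 26.5% of tested loci. An IFE peak lay near 10 of the 11 paralogs, 16 of the 19 partners, 25 of the 35 other factors, 21 of the 25 p63 targets and 4 of the 11 vitamin D receptor targets, beside 53.8% of tested loci.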

How the data were processed

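RNA was measured in 4 HFSC libraries and SOX9 ChIP in 3; input DNA was not analysed here. The authors deposited FPKM, per the file headers. Build mm9, Cufflinks 1.0.3, TopHat, TopHat2 and Bowtie appear, with no role stated, in the submitters' processing notes. The deposited peak lists hold a chromosome, start and end, without a score; no source used here names the peak caller. Starts are printed counted from 1. Depth is unknown, so count models and counting intervals do not apply, and the precision rests on 2 libraries for each genotype.

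For tests, log2(FPKM + 1) was fitted in limma 3.58.1 (R 4.3.3; moderated variances that follow mean level, two-sided p adjusted by Benjamini-Hochberg over 14455 genes, threshold 0.05), with genotype alone and with the replicate number as a block. This scale understates changes of low genes. A moderated SE shares spread across genes. The numbers pair the libraries by sex, age and RU486 window. Across genes, deviations from the genotype mean correlated between same-numbered libraries (r = 0.812). With 2 libraries for each genotype, this value is the same for both numbers by construction. Under the block 1 residual degree of freedom is left. Replicate 2 was set against replicate 1 with genotype as the other term. The labels do not say that libraries came from separate mice, so p-values measure only the spread between these libraries, which may be technical.

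Members, lists, motifs and tests were chosen with earlier results of these data known. All 10 members are described; from each list those past the threshold or up to 4 by smallest blocked p were to be named, with the 3 nearest patterns for Lhx2, Nfatc1 and Tbx1. Ldb1, Gm13584, Gm16314 and Gnb1l were added after their values were seen. Python 3.11.15 counted peaks, and scripts were tested on simulated data.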

Additional observations from a re-analysis of the deposited data

Results flagged for a closer look

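Runx1 differed in opposite directions in the same-numbered pairs: the library labelled cKO minus its control was -0.41 on log2(FPKM + 1) in the male pair and 0.43 in the female pair. Gata3 did so in the other order and by less, at 0.10 in the male pair and -0.19 in the female pair. Both were flagged for passing 0.1 in each direction. Opposite directions were seen in 4 of the 10 factors. Of all tested genes, 29.6% were below control in both pairs and 28.4% above in both. Each pair holds 1 library of each genotype, and the difference between pairs was not tested.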

How the results depend on the processing

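Without the block, 0 factors were called under the main settings, the other pseudocounts, scalings, filter and trend settings, and with each library left out in turn (0 to 0). With the replicate block 1 was called (Lhx2), likewise with the block and a pseudocount of 0.1 or 5 and, in an alternative chosen after seeing the data, with the locus-span trend removed; 0 were called with the block and no filter, TPM scaling, quantile normalization or no mean trend. The cause was not tested. Over all genes limma called 0 without the block, 41 with it, 33 and 78 with it at pseudocounts 0.1 and 5, 28 with the locus-span trend removed, 3 with quantile normalization, and 0 with the block and no filter, TPM scaling or no mean trend. Leaving out 1 library with no block called 2 to 41. The lone library of an arm is then assumed to vary like the others, and part of the difference between replicates enters each change: these ran from -0.89 to 0.92 for Runx1, -0.56 to 0.62 for Vdr, -0.38 to 0.51 for Trp63, -1.53 to 0.37 for Nfatc1, -1.02 to 0.54 for Nfib, -1.10 to 0.37 for Foxp1 and -0.22 to 0.13 for Gata3. With or without the replicate block, signs turned for Runx1 at pseudocount 5 (-0.034) and TPM scaling (-0.11), for Vdr with TPM scaling (-0.10) and quantile normalization (-0.07), and for Trp63 with the same 2 (-0.069 and -0.056). Between replicates, Tbx1 turned with TPM scaling (-0.34), quantile normalization (-0.37) and the locus-span trend removed (-0.091), and Barx2 with TPM scaling (-0.23). TPM scaling shifted the median of all genes by -0.13 between genotypes, and the 3 values it turned there stay above that shift. Between replicates 5 to 8 factors were called over all settings. Of factors near a peak of both HFSC lists, 7 to 8 remained over the windows and overlaps tried, 9 with list 1 alone and 8 with list 2 alone; the IFE count was 9 in every window.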
